A study of Homo sapiens with 15 samples.

Results

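The expression of 10 genes of calcium entry was examined in LNCaP cells: 5 TRP channels (TRPM8, TRPM4, TRPM7, TRPV6 and TRPC1), the ORAI channel subunits ORAI1, ORAI2 and ORAI3, and the store calcium sensors STIM1 and STIM2. The genes were chosen by symbol, and all 10 had a row among the 17272 genes of the expression table. LNCaP is an established line of human prostate cancer cells that respond to androgen, so the libraries represent 1 cell line. All cells were starved for 2 days in charcoal-stripped serum and then received 1 nM R1881, a synthetic androgen, for 22 h. In 10 libraries the cells received R1881 with DMSO, the solvent, and in 5 libraries R1881 with 2 µM enzalutamide, an antiandrogen. No library of cells without R1881 was part of the comparison.

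Calcium enters epithelial cells mainly through channels that are not opened by voltage. When the calcium store of the endoplasmic reticulum empties, STIM1 and STIM2 sense the loss and open ORAI channels in the plasma membrane, a process called store-operated calcium entry. TRP channels are cation channels with varied triggers: TRPM8 responds to cold and menthol and is known as an androgen-regulated gene of the prostate, TRPV6 is highly selective for calcium, TRPM7 conducts magnesium and calcium and carries a kinase, TRPM4 is activated by calcium but conducts monovalent cations, and TRPC1 belongs to the receptor-operated TRPC group.

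On GRCh38 (GENCODE v44) TRPM8 lies on the plus strand of chromosome 2 from 233917373 to 234019522, with 26 exons in its canonical transcript. TRPC1 (13 exons) is found at chr3:142724034-142807888 and TRPM4 (25 exons) at chr19:49157741-49211836, both on the plus strand. TRPM7 (39 exons) at chr15:50552473-50686797 and TRPV6 (15 exons) at chr7:142871208-142885745 are on the minus strand. ORAI1 lies on chromosome 12 from 121626509 to 121643218, ORAI2 on chromosome 7 from 102433106 to 102456825, ORAI3 on chromosome 16 from 30949068 to 30956461, STIM1 on chromosome 11 from 3854527 to 4093210 and STIM2 on chromosome 4 from 26857601 to 27025381, all on the plus strand. The 3' end of ORAI2 overlaps ALKBH4, a gene of the table, on the opposite strand. Whether strand was used in counting is not stated, so reads of these 2 genes may be mixed. TRPM7 overlaps a protein-coding gene of the same strand and ORAI3 a long noncoding RNA of the same strand, neither with a row in the table. TRPC1 and STIM1 also overlap entries of the same strand that have no row.

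To place the genes, the 250 bases before their starts were read from RefSeq promoter windows on GRCh38.p14, which were present for 9 of the 10 genes (18 windows). ORAI1 had no entry. The sequences of TRPM8, the gene that fell most, of TRPC1, the gene that rose most, and of TRPV6, whose window held a match, are shown with matches in capitals. The motif was AGAACA, the hexamer that occurs in androgen response elements, searched on both strands.
TRPM8, chr2:233917123-233917372, plus strand: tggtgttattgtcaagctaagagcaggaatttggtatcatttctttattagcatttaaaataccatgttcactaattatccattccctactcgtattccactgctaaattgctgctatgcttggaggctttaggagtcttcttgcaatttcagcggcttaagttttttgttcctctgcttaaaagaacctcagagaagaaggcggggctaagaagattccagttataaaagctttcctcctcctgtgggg
TRPC1, chr3:142723784-142724033, plus strand: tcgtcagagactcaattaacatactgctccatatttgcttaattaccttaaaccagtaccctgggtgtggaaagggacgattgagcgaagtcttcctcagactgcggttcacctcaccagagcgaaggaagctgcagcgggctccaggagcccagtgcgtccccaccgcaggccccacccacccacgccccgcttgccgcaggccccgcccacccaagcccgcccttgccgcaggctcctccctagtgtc
TRPV6, chr7:142885746-142885995, minus strand: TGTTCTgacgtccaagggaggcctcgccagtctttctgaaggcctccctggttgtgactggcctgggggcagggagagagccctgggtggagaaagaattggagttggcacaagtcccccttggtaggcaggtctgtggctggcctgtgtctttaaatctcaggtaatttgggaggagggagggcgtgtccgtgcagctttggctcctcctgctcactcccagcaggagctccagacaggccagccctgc
The window at the canonical start of TRPM8 held no AGAACA, and neither did that of TRPC1. In TRPV6 the match TGTTCT, on the reverse strand, began 250 bases before the start. Over all starts, 4 of 18 windows held the motif. Besides TRPV6, a TRPM8 window 62776 bases and a TRPC1 window 10158 bases inside the gene held it, and a STIM1 window held 2 matches. AGAACA was found in 12.4% of all 35116 promoter windows of this length. The full element, AGAACA followed after 3 bases by TGTTCT, was in none of the 18 windows and in 1 of all windows.

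Expression is given in counts per 1000000 reads (CPM) as deposited, and differences were tested by limma on log2(CPM + 0.5) across 17046 genes, with a Benjamini-Hochberg adjusted p under 0.05 as the threshold. Libraries held between 15830745 and 24316740 counted reads with R1881 + DMSO and between 21188661 and 25416052 with R1881 + enzalutamide. The androgen-induced genes KLK2, TMPRSS2 and FKBP5 were examined first as a check of the treatment, and all fell. FKBP5 was at 1502 ± 87.4 CPM (SD, n = 10) with R1881 + DMSO and at 46.8 ± 3.11 CPM (SD, n = 5) with enzalutamide. All 6 luminal prostate markers examined, among them KRT8 and KRT18, were measured. Of 4 basal markers only KRT14 had a row, with at most 1.44 CPM in a library, and of 7 stromal, immune and endothelial markers only COL1A1 and VWF, whose sum lay between 7.06 and 10.8 CPM with R1881 + DMSO and between 10.3 and 15.6 CPM with R1881 + enzalutamide. All 8 proliferation markers were lower with enzalutamide, with sums of 705 to 850 CPM and 383 to 432 CPM. Of all genes tested, 32.7% were called as lower. The part of these marker changes in the values of the calcium genes was not tested. In bulk RNA fewer cells of a type and less RNA per cell cannot be told apart.

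Of the 10 genes, 4 fell (TRPM8, TRPM4, TRPM7 and ORAI1) and 5 rose (TRPC1, STIM2, ORAI3, ORAI2 and TRPV6) with enzalutamide, while STIM1 did not pass the threshold. Among all genes tested, 62.5% passed it, 32.7% as lower and 29.8% as higher, so a call by itself is common in this comparison. The median log2 fold change of the 10 genes was 0.10, beside -0.01 for all genes tested. TRPC1 passed the filter of a mean of 0.5 CPM only through the enzalutamide libraries, and without it 4 genes fell, 4 rose and the median was 0.03. The libraries of the treatments did not overlap for 5 of the 10 genes, 3 as lower and 2 as higher. The 2 higher genes were STIM2 and TRPC1, so only STIM2 remained without TRPC1. Of all genes tested, 37.2% showed no overlap (20.1% lower and 17.1% higher). With library totals set to 1000000 in place of the deposited scaling, the share of lower genes among all those called was 39.3% in place of 52.3%.

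**Figure D1:**
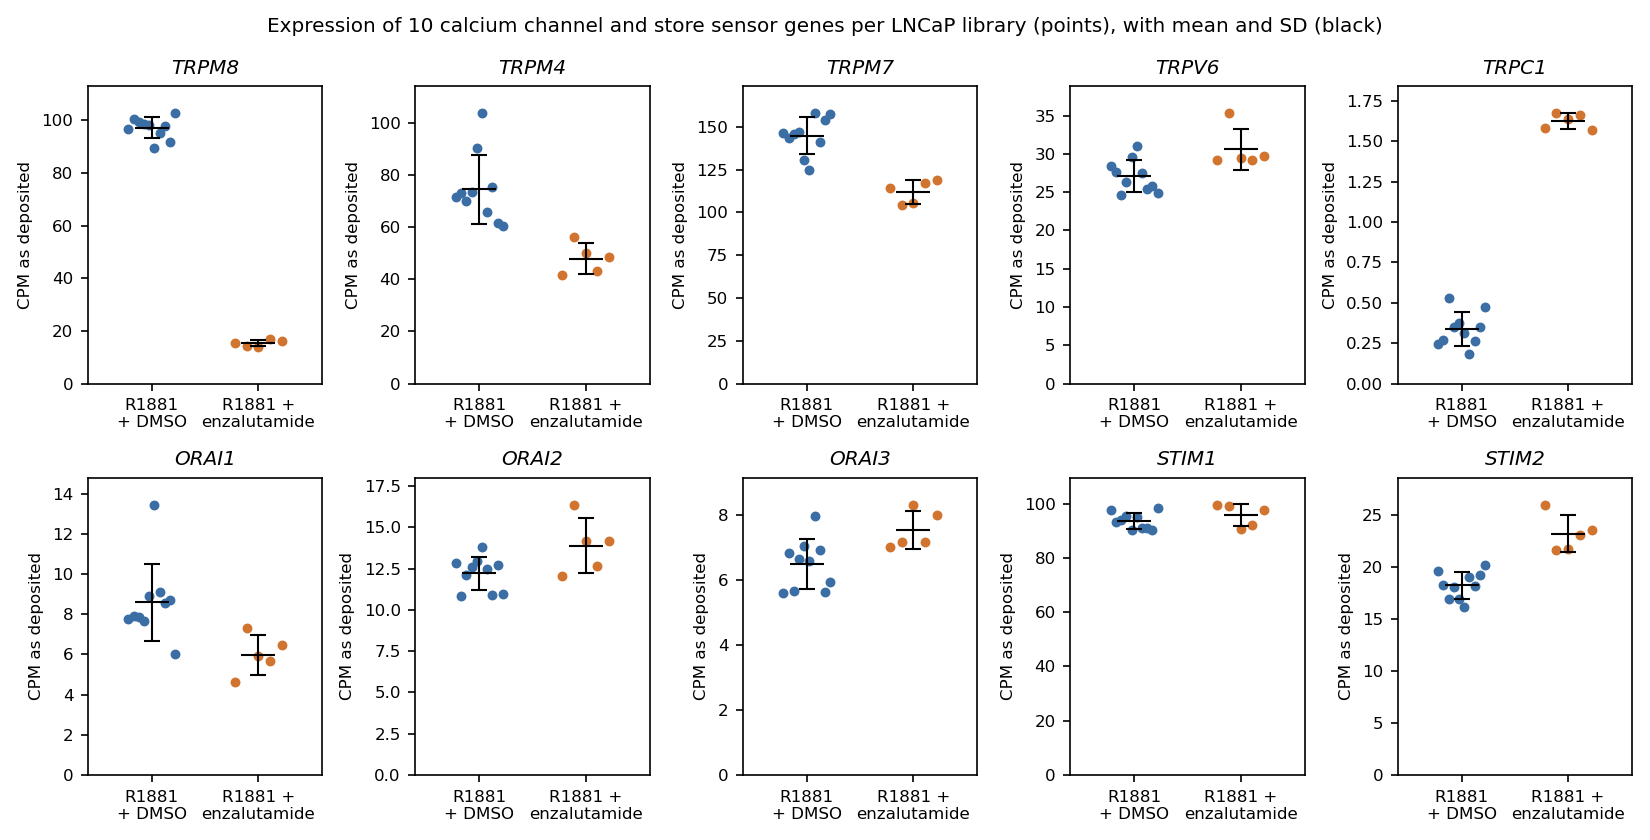
CPM as deposited (vertical axes, from 0) of each of the 10 genes in 10 R1881 + DMSO libraries (blue points) and 5 R1881 + enzalutamide libraries (orange points), with the mean and SD in black. TRPM8 sits between 89.6 and 103 CPM with R1881 + DMSO and between 13.96 and 17.1 CPM with enzalutamide, whereas the ranges of STIM1 overlap.

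TRPM8 showed the largest decrease. Its level was 89.6 CPM in the lowest, 98.1 CPM in the median and 103 CPM in the highest R1881 + DMSO library, and 15.5, 14.4, 13.96, 17.1 and 16.1 CPM in R1881 + enzalutamide replicates 1 to 5. Every enzalutamide library lay far below every R1881 + DMSO library. The mean was 97.1 ± 3.96 CPM (SD, n = 10) with R1881 + DMSO and 15.4 ± 1.26 CPM (SD, n = 5) with enzalutamide, 6.30-fold less, and the median decreased by 84.2%. The log2 fold change was -2.62 (limma, SE 0.045, adjusted p = 4.21e-21), which ranked it at place 89 from the lowest among the 17046 genes tested. TRPM8 was represented by 307 to 411 reads per library with enzalutamide, and its fold change stayed between -2.66 and -2.53 under all 30 alternative settings.

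TRPM8 varied little between R1881 + DMSO libraries, with a coefficient of variation of 4.08%, and among the 10 genes only STIM1 varied less (3.17%). The libraries numbered 51 to 55 had 97.0 ± 4.04 CPM (SD, n = 5) and those numbered 71 to 75 had 97.2 ± 4.36 CPM (SD, n = 5). The 3 genes whose profile over the 15 libraries was most like that of TRPM8, among 12163 genes with a mean of at least 5 CPM, were MBOAT2, TBC1D1 and FKBP5, each with a Pearson correlation of 1.00 after rounding. The 15 libraries fall into the 2 treatments, and within the 10 R1881 + DMSO libraries alone the correlation was 0.52 with MBOAT2, 0.65 with TBC1D1 and 0.39 with FKBP5. These values are a description.

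TRPM4 also fell. Its level was 60.6 CPM in the lowest, 72.2 CPM in the median and 104 CPM in the highest R1881 + DMSO library, and 41.8, 56.3, 49.9, 43.0 and 48.7 CPM in R1881 + enzalutamide replicates 1 to 5. The ranges did not overlap, but R1881 + DMSO libraries differed from each other more than for TRPM8. The mean was 74.5 ± 13.3 CPM (SD, n = 10) with R1881 + DMSO and 47.9 ± 5.83 CPM (SD, n = 5) with enzalutamide, a log2 fold change of -0.62 (limma, SE 0.10, adjusted p = 1.84e-05). Against the R1881 + DMSO libraries 51 to 55 alone the log2 fold change was -0.47, and against the libraries 71 to 75 alone -0.77 (adjusted p = 1.64e-05 and 1.50e-05 from limma).

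TRPM7 was the member with the most reads, 2076 to 3489 per library. Its level was 125 CPM in the lowest, 146 CPM in the median and 158 CPM in the highest R1881 + DMSO library, and 114, 104, 105, 117 and 119 CPM in R1881 + enzalutamide replicates 1 to 5. All enzalutamide libraries were below all R1881 + DMSO libraries, by a small margin. The mean was 145 ± 10.8 CPM (SD, n = 10) with R1881 + DMSO and 112 ± 6.83 CPM (SD, n = 5) with enzalutamide, and the log2 fold change was -0.37 (limma, SE 0.052, adjusted p = 3.07e-06). Against the libraries 51 to 55 alone it was -0.45 and against the libraries 71 to 75 alone -0.29.

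TRPV6 rose slightly. Its level was 24.7 CPM in the lowest, 26.9 CPM in the median and 31.1 CPM in the highest R1881 + DMSO library, and 29.2, 35.4, 29.5, 29.1 and 29.8 CPM in R1881 + enzalutamide replicates 1 to 5. The ranges overlapped, and replicate 2 alone stood above all other libraries. The log2 fold change was 0.17 (95% interval 0.05 to 0.29, adjusted p = 0.0169 from limma). Without R1881 + enzalutamide replicate 2 it was 0.12 (adjusted p = 0.0795 from limma), and against the R1881 + DMSO libraries 71 to 75 alone 0.14 (adjusted p = 0.105 from limma), so the call did not hold in either case.

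TRPC1 was close to the detection limit with R1881 + DMSO and rose with enzalutamide. R1881 + DMSO libraries held 3 to 12 reads of this gene, which correspond to 0.180 CPM in the lowest, 0.334 CPM in the median and 0.527 CPM in the highest library. R1881 + enzalutamide replicates 1 to 5 held 1.58, 1.67, 1.64, 1.66 and 1.57 CPM, or 34 to 40 reads. The groups were well separated, although the counting error of each R1881 + DMSO value was large. The mean was 0.335 ± 0.105 CPM (SD, n = 10) with R1881 + DMSO and 1.62 ± 0.047 CPM (SD, n = 5) with enzalutamide, 4.85-fold more.

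On the log2(CPM + 0.5) scale the log2 fold change of TRPC1 was 1.36 (SE 0.10), which understates the change of a gene with so few reads. TRPC1 passed the filter only through the group in which it was high. Its test is therefore given from the fit without this filter, over all 17272 genes (limma, log2 fold change 1.36, adjusted p = 2.48e-10). The gene filter behind the table is not stated, so whether TRPC1 has its row only through that group is not known. With a pseudocount of 0.1 its log2 fold change was 2.02, and on the recovered reads 2.28 by edgeR and 2.27 by DESeq2. These fits applied the filter of a mean of 0.5 CPM. The genes most like TRPC1 over the 15 libraries, among 12164 genes, were SLC38A9, SI and TNFRSF10D, each with a Pearson correlation of 0.98 to 0.99. Within the 10 R1881 + DMSO libraries the correlation was 0.70 with SLC38A9, 0.60 with SI and 0.73 with TNFRSF10D. These genes were picked over 15 libraries that fall into the treatments and include these 10, in which TRPC1 had 3 to 12 reads. The correlations are a description.

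**Figure D2:**
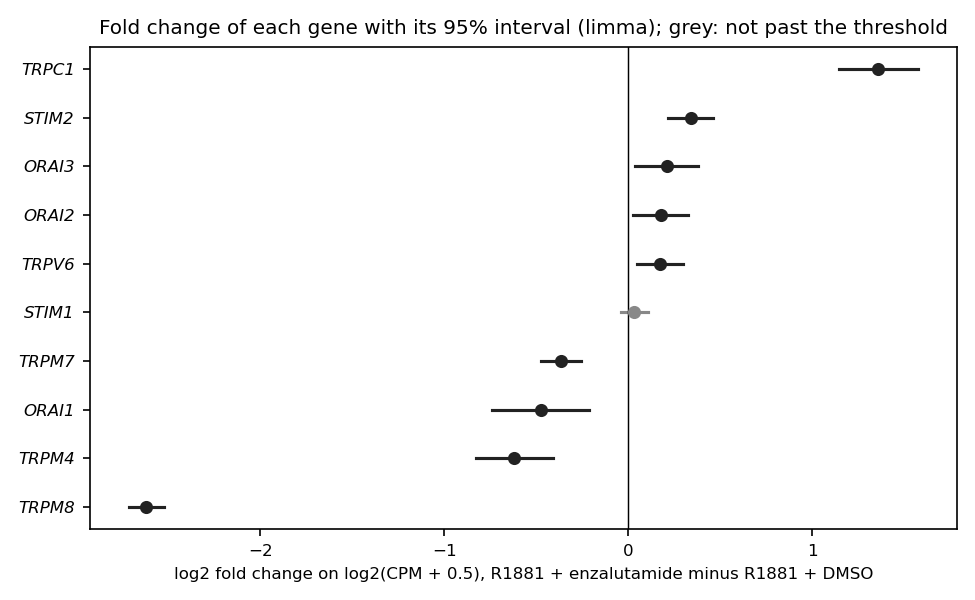
Log2 fold change of each gene on the log2(CPM + 0.5) scale (horizontal axis, R1881 + enzalutamide minus R1881 + DMSO; points) with its 95% interval from limma (lines), ordered from the highest to the lowest. TRPC1 at 1.36 and TRPM8 at -2.62 stand apart, and the interval of STIM1 (grey) includes 0.

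The ORAI subunits moved in different directions. ORAI1, the pore subunit of classical store-operated entry, fell. Its level was 6.03 CPM in the lowest, 8.25 CPM in the median and 13.5 CPM in the highest R1881 + DMSO library, and 4.61, 7.30, 5.91, 5.66 and 6.47 CPM in R1881 + enzalutamide replicates 1 to 5. The ranges overlapped through R1881 + DMSO replicate 10, the lowest of its group, and R1881 + enzalutamide replicates 2 and 5. The mean was 8.60 ± 1.92 CPM (SD, n = 10) with R1881 + DMSO and 5.99 ± 0.997 CPM (SD, n = 5) with enzalutamide, a log2 fold change of -0.48 (limma, SE 0.13, adjusted p = 0.00258). With each library left out in turn it stayed between -0.55 and -0.39.

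ORAI2 and ORAI3, the other subunits of the family, had small increases whose calls depended on single libraries. ORAI2 was at 10.8 CPM in the lowest, 12.5 CPM in the median and 13.8 CPM in the highest R1881 + DMSO library, and at 12.1, 16.4, 14.1, 12.7 and 14.2 CPM in R1881 + enzalutamide replicates 1 to 5. ORAI3 was at 5.61 CPM in the lowest, 6.62 CPM in the median and 7.97 CPM in the highest R1881 + DMSO library, and at 7.03, 7.16, 8.32, 7.19 and 8.00 CPM in R1881 + enzalutamide replicates 1 to 5. The ranges of the treatments overlapped for both genes. The log2 fold change was 0.17 for ORAI2 (95% interval 0.02 to 0.33, adjusted p = 0.0430 from limma) and 0.21 for ORAI3 (95% interval 0.04 to 0.38, adjusted p = 0.0318 from limma).

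The call of ORAI2 was lost when any one of 7 libraries was left out (R1881 + DMSO replicates 2, 3, 8 and 10 and R1881 + enzalutamide replicates 2, 3 and 5), with log2 fold changes of 0.11 to 0.17 and adjusted p-values of 0.0555 to 0.175 from limma. That of ORAI3 was lost without any one of 5 libraries (R1881 + DMSO replicates 1, 3 and 9 and R1881 + enzalutamide replicates 3 and 5), with log2 fold changes of 0.17 to 0.19 and adjusted p-values of 0.0521 to 0.0984. Against the R1881 + DMSO libraries 71 to 75 alone neither passed (adjusted p = 0.0932 for ORAI2 and 0.0778 for ORAI3 from limma). In that comparison 6 of the 10 genes were called, 4 as lower and 2, TRPC1 and STIM2, as higher. Of all genes tested, 58.9% were called, 30.5% as lower and 28.3% as higher.

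Among the store sensors STIM2 rose. Its level was 16.1 CPM in the lowest, 18.2 CPM in the median and 20.2 CPM in the highest R1881 + DMSO library, and 26.0, 21.6, 21.7, 23.1 and 23.6 CPM in R1881 + enzalutamide replicates 1 to 5. All enzalutamide libraries were above all R1881 + DMSO libraries. The mean was 18.2 ± 1.31 CPM (SD, n = 10) with R1881 + DMSO and 23.2 ± 1.78 CPM (SD, n = 5) with enzalutamide, a log2 fold change of 0.34 (limma, SE 0.059, adjusted p = 4.14e-05). Against the libraries 51 to 55 alone it was 0.26 and against the libraries 71 to 75 alone 0.41.

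STIM1, the major sensor, was at 90.1 CPM in the lowest, 93.5 CPM in the median and 98.2 CPM in the highest R1881 + DMSO library, and at 99.7, 99.0, 90.7, 92.1 and 97.6 CPM in R1881 + enzalutamide replicates 1 to 5. The ranges overlapped almost completely. The log2 fold change was 0.03 (95% interval -0.04 to 0.10, adjusted p = 0.417 from limma). STIM1 passed the threshold under other settings, as higher with enzalutamide by 0.13 with library totals set to 1000000 (adjusted p = 0.00230 from limma) and by 0.08 with the quasi-likelihood test of edgeR (adjusted p = 0.0472).

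To compare these genes without the scaling of libraries, ratios were taken within each library. With R1881 + DMSO the ORAI3 to ORAI1 ratio of CPM was 0.777 ± 0.140 (SD, n = 10), and enzalutamide libraries had 1.28 ± 0.205 (SD, n = 5). On the log2 scale with the pseudocount it was -0.36 ± 0.27 and 0.32 ± 0.22, a difference of 0.68 (two-sided exact permutation test with 3003 regroupings, p = 0.000666, also after adjustment over the 2 ratios). Only R1881 + enzalutamide replicate 2, at -0.03, lay within the range of the R1881 + DMSO libraries, which extended to -0.02. The difference was 0.60 against the libraries 51 to 55 alone and 0.77 against the libraries 71 to 75 alone (exact permutation test, p = 0.0159 and 0.00794).

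With R1881 + DMSO the STIM2 to STIM1 ratio of CPM was 0.195 ± 0.014 (SD, n = 10), and enzalutamide libraries had 0.242 ± 0.016 (SD, n = 5), without overlap. The difference on the log2 scale was 0.31 (two-sided exact permutation test, p = 0.000333, the smallest this design allows, 0.000666 after adjustment over the 2 ratios). Against the libraries 51 to 55 alone it was 0.24 and against the libraries 71 to 75 alone 0.37.

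**Figure D3:**
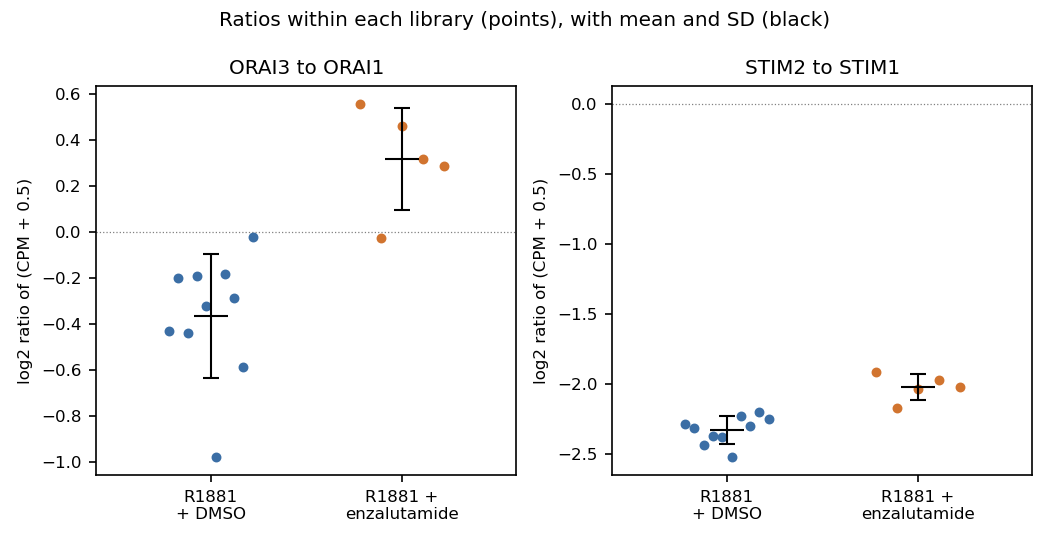
Log2 ratio of (CPM + 0.5) within each library (points, vertical axes) for ORAI3 to ORAI1 and STIM2 to STIM1, by treatment. The mean and SD are in black, and a dotted line marks equal CPM of both genes, without correction for transcript length. The ORAI3 to ORAI1 ratio is below 0 in every R1881 + DMSO library and above 0 in 4 of 5 enzalutamide libraries, and the STIM2 to STIM1 ratio is below 0 in all libraries.

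Levels between genes were compared as CPM per kb of the canonical transcript, a scale that depends on the transcript length assumed. With R1881 + DMSO the order was STIM1 (22.5 ± 0.711 CPM per kb, SD, n = 10), TRPM4 (18.4 ± 3.27), TRPM8 (17.2 ± 0.702), TRPM7 (13.9 ± 1.04), TRPV6 (9.33 ± 0.725), ORAI1 (5.75 ± 1.28), STIM2 (3.64 ± 0.261), ORAI3 (2.94 ± 0.348), ORAI2 (1.14 ± 0.094) and TRPC1 (0.074 ± 0.023). Neighbouring genes whose libraries overlapped were STIM1 and TRPM4, TRPM4 and TRPM8, TRPV6 and ORAI1, ORAI1 and STIM2, and STIM2 and ORAI3. With enzalutamide TRPM8 moved from the third to the eighth place, at 2.73 ± 0.223 CPM per kb (SD, n = 5), below ORAI3 at 3.42 ± 0.264 and above ORAI2 at 1.29 ± 0.155. TRPM4, TRPM7 and TRPV6, which then stood next to each other at 11.8 ± 1.44, 10.8 ± 0.658 and 10.5 ± 0.917 CPM per kb, overlapped between neighbours.

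On this scale ORAI1 made up 58.0 ± 4.17% of the sum of the ORAI genes with R1881 + DMSO (SD, n = 10) and 45.7 ± 3.35% with enzalutamide (SD, n = 5). ORAI3 contributed 30.3 ± 3.69% and 39.5 ± 3.63%, and ORAI2 11.7 ± 1.30% and 14.8 ± 0.658%. STIM1 made up 86.0 ± 0.837% of the STIM sum with R1881 + DMSO and 83.2 ± 0.920% with enzalutamide.

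Some libraries stood apart in their balance of GC-rich and GC-poor genes. For each library the median log2 deviation from its group mean was taken over the fifth of genes with the highest GC content, and that over the fifth with the lowest was subtracted. This value was 0.50 in R1881 + DMSO replicate 6, 0.28 in R1881 + DMSO replicate 5 and 0.35 in R1881 + enzalutamide replicate 2, and between -0.30 and 0.06 in the other libraries. In R1881 + DMSO replicate 6 the transcripts of highest GC content, ORAI1 (65.8% GC) and TRPM4 (63.5% GC), were at their highest, 13.5 and 104 CPM, whereas TRPM7 (39.5% GC) was at the lowest level of its group, 125 CPM. In R1881 + enzalutamide replicate 2 ORAI1, TRPM4, TRPV6 and ORAI2 were likewise the highest of their group, and TRPM7 the lowest. Other genes did not follow this order there: ORAI3 (59.4% GC), at 7.16 CPM, was the second lowest of its group, and TRPC1 (39.7% GC), at 1.67 CPM, the highest. The log2 ratios of ORAI3 to ORAI1 and of STIM2 to STIM1 were lowest of their group in R1881 + DMSO replicate 6 (-0.98 and -2.53). The same held for R1881 + enzalutamide replicate 2 (-0.03 and -2.17), but not for R1881 + DMSO replicate 5 (-0.32 and -2.38).

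Without these 3 libraries the log2 fold change was -0.58 for TRPM4, -0.46 for ORAI1, -0.39 for TRPM7 and 0.16 for TRPV6, all past the threshold, and 0.15 for ORAI2, which did not pass it (adjusted p = 0.0669 from limma). In another setting a trend on GC content was subtracted in each library. The trend was fitted to deviations from the mean of all 15 libraries, so any GC trend between the treatments was subtracted too. TRPM4 then had -0.55 (adjusted p = 1.07e-13), ORAI1 -0.42 (adjusted p = 1.29e-05), TRPV6 0.25 (adjusted p = 1.79e-06) and ORAI2 0.25 (adjusted p = 0.000350 from limma), and STIM1 passed with 0.10 (adjusted p = 0.0182). The 4 genes that fell and the 5 that rose kept their direction and call with the trend removed. TRPC1, among the 5, again entered the fit only through the enzalutamide libraries. In this setting 73.1% of all genes tested were called, 35.6% as lower and 37.4% as higher. The differences of the log2 ratios without the 3 libraries were 0.70 for ORAI3 to ORAI1 and 0.31 for STIM2 to STIM1. With the trend removed they were 0.71 and 0.27. Both settings were chosen after seeing the data.

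**Figure D4:**
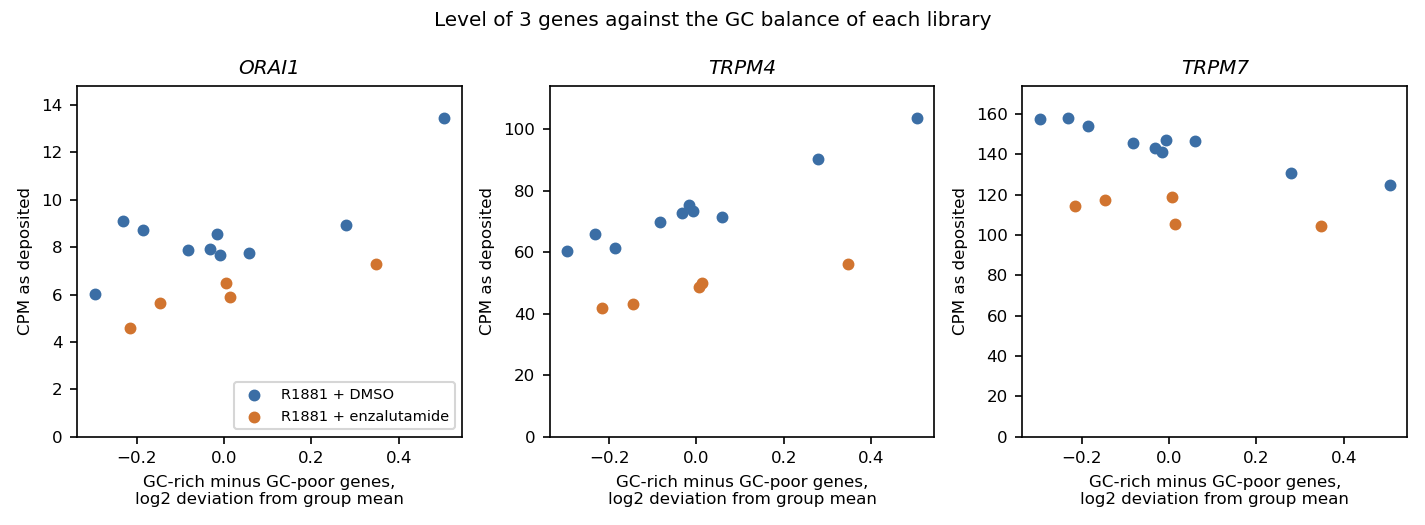
CPM of ORAI1, TRPM4 and TRPM7 (vertical axes, from 0) against the log2 deviation of GC-rich minus GC-poor genes from the group mean (horizontal axes) in each R1881 + DMSO (blue) and R1881 + enzalutamide (orange) library. R1881 + DMSO replicate 6, at 0.50, has the highest ORAI1 and TRPM4 and the lowest TRPM7 of its group.

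Other genes of calcium handling were described by lists. Of 97 further genes in 7 lists, 58 had a row in the table and 57 passed the filter, of which 20 fell, 22 rose and 15 did not pass the threshold. These shares, and those of each list below, can be read against the 32.7% (lower) and 29.8% (higher) of all genes. Of the 22 other TRP channels only 5 had a row, and 17 were not analysed here. TRPM2, a channel gated by ADP-ribose, fell from 43.9 ± 11.7 to 22.9 ± 6.24 CPM (SD, n = 10 and 5), and MCOLN1, a lysosomal channel, from 9.21 ± 0.991 to 6.56 ± 0.735 CPM. TRPV1, the capsaicin receptor, rose from 3.67 ± 0.628 to 5.78 ± 0.596 CPM, and PKD2 rose as well.

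Among 13 measured partners of STIM, ORAI and TRP proteins, 7 fell and 2 rose, with a median log2 fold change of -0.33. Both TCAF genes, whose products bind TRPM8 and regulate its transport to the plasma membrane, fell. TCAF1 decreased from 427 ± 19.2 to 187 ± 11.1 CPM (SD, n = 10 and 5), with the highest enzalutamide library at 198 CPM and the lowest R1881 + DMSO library at 390.0 CPM (log2 fold change -1.19, limma SE 0.039, adjusted p = 1.87e-16). TCAF2 decreased from 7.76 ± 1.02 to 1.67 ± 0.218 CPM (log2 fold change -1.92), and since the annotation holds the closely similar TCAF2C and TCAF2P1, its reads may be shared with them. SURF4, a cargo receptor of the secretory pathway known to bind STIM1, fell from 357 ± 24.2 to 208 ± 4.80 CPM. SARAF, which limits store-operated entry, fell with a log2 fold change of -0.42. Another of the 7, ANXA2, passed the filter only through the R1881 + DMSO libraries.

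Of 8 genes of store release and refilling, 3 fell and 2 rose: ITPR1 and RYR2, release channels of the endoplasmic reticulum, rose with log2 fold changes of 0.35 and 0.41, and ITPR3 fell with -0.32. Both measured plasma membrane calcium pumps rose, ATP2B1 from 99.2 ± 8.11 to 208 ± 14.3 CPM (SD, n = 10 and 5; log2 fold change 1.07, limma SE 0.056, adjusted p = 6.36e-13) and ATP2B4 with a log2 fold change of 0.22. Every enzalutamide library was above every R1881 + DMSO library for both pumps, as for 17.1% of all genes tested.

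Of 6 voltage-gated channel genes tested, 4 rose and none fell, but 11 of the 18 listed had no row and 1 was below the filter. CACNB2 and CACNA2D2, auxiliary subunits, and CACNA1D, a pore subunit, had log2 fold changes of 0.96, 0.64 and 0.60, at mean levels of 2.38, 11.4 and 7.35 CPM with enzalutamide. In the mitochondrial uptake list 5 of 9 genes rose and 2 fell. MCU, the pore of the mitochondrial uniporter, rose from 35.6 ± 2.32 to 70.7 ± 1.63 CPM (SD, n = 10 and 5; log2 fold change 0.98, limma SE 0.046, adjusted p = 8.18e-14), and its regulator MICU3 rose with a log2 fold change of 0.70. With library totals set to 1000000, 1 gene of this list in place of 2 was lower.

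Of 14 genes of calmodulin, calcineurin and NFAT, which read out the calcium signal, 6 fell and 5 rose, with a median log2 fold change of -0.07. The largest changes were increases, of NFATC2 (log2 fold change 1.12) and NFATC4 (0.94), transcription factors activated by calcineurin, and of RCAN3 (0.94), a calcineurin regulator. RCAN3 rose from 36.5 ± 2.73 to 70.6 ± 2.11 CPM (SD, n = 10 and 5), whereas NFATC2 and NFATC4 stayed at or below 2.78 CPM in every library. The number of lower genes in this list was 2 with library totals set to 1000000 and 3 against the R1881 + DMSO libraries 71 to 75 alone, settings in which 25.2% and 30.5% of all genes were called as lower.

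**Figure D5:**
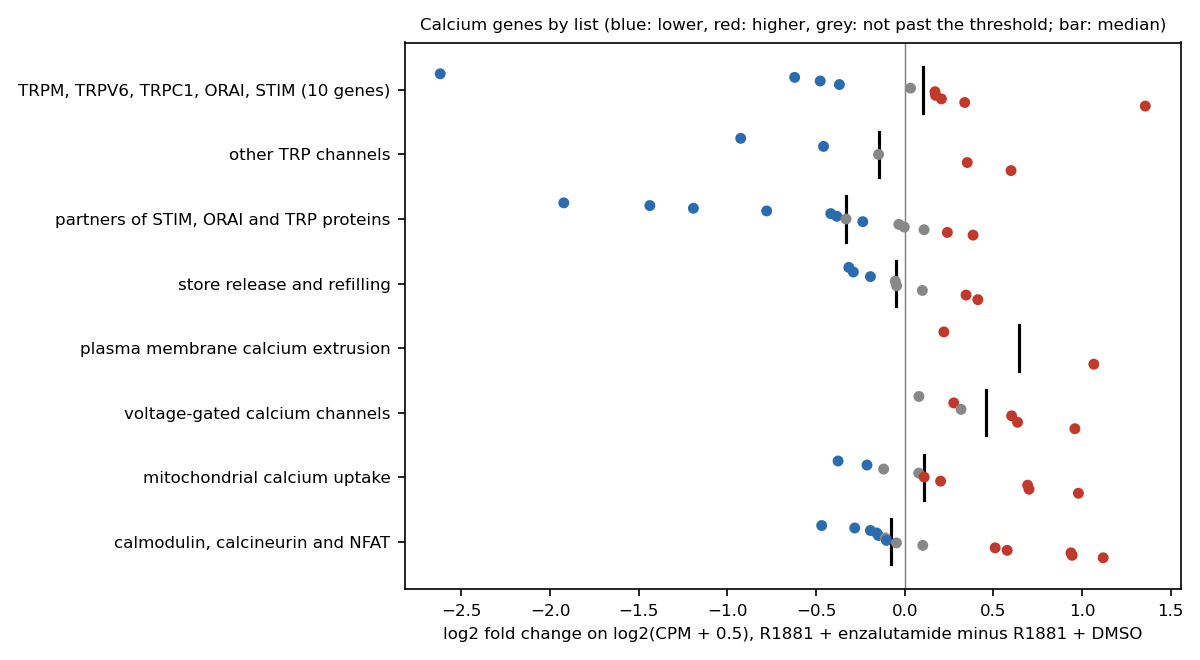
Log2 fold change on the log2(CPM + 0.5) scale (horizontal axis, R1881 + enzalutamide minus R1881 + DMSO) of each tested gene (points) in the 10 genes described here and 7 further calcium lists, with black bars at the medians. Blue points passed the threshold as lower, red points as higher and grey points did not pass, and TRPM8 at -2.62 is the lowest point of all lists.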

How the data were processed

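Polyadenylated RNA of LNCaP cells was sequenced in single-end reads from stranded libraries. Per the labels, mapping was done with STAR on GRCh38 and counting with featureCounts (Subread). Apart from bcl2fastq 2.17, tool versions, as well as the annotation, the strand setting, the gene filter and the scaling, are not stated. The deposited values, called CPM, are a scaled signal per gene and library. They summed to between 1053406 and 1078567 with R1881 + DMSO and to between 985580 and 1008992 with R1881 + enzalutamide, without overlap. With totals set to 1000000 the log2 fold change was -0.27 for TRPM7 and 0.26 for TRPV6 and for ORAI2. All deposited values (100%) gave whole reads to within 0.01. These recovered reads were used for edgeR and DESeq2, for the read numbers given here and for comparing pairs of libraries within a treatment. The methods call the libraries biological replicates, but the numbers given there for the treatments are the reverse of the labels, which were used. Nothing else says that they came from separate cultures, so p-values measure only the spread between these libraries, which may be partly technical.

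Differences were tested with limma 3.58.1 in R 4.3.3 (mean-variance trend, pseudocount 0.5, mean CPM of at least 0.5, treatment as the only term), and single ratios with exact permutation tests. Alternatives covered the pseudocount (0.1 and 1), the filter, the scaling, edgeR 4.0.16, DESeq2 1.42.0, a replicate block, each R1881 + DMSO library series and each library left out. The removal of a trend on GC content (spline with 5 degrees of freedom, 85.1% of tested genes with a GC value), the fit on replicates 1 to 5 without a block and the omission of 3 libraries were added after seeing the data. The library numbers 51 to 55, 71 to 75 and 81 to 85 are from the labels, which do not explain them. No series holds both treatments, so a difference between series and the treatment cannot be told apart. In all 55 pairs within a treatment the counts differed beyond sampling noise (lowest chi-square divided by its degrees of freedom, 1.62). The genes and lists were chosen with earlier results of these data known. Named in the text were the 10 genes, the androgen response genes, from each further list the 3 genes with the largest change among those called with a mean CPM of at least 1, and the 3 genes most like the highest and lowest called member; SARAF, PKD2 and the marker genes were named outside this rule, and 1 gene that the rule names is not reported here. Other listed genes without a row were not analysed here. The fits were tested on simulated reads. The number of libraries limits precision, as does counting error where reads are few.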

Additional observations from a re-analysis of the deposited data

Results flagged for a closer look

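Among 24 groups of libraries examined (the 10 genes and 2 ratios, in each treatment), 2 held a library whose gap to the nearest other exceeded the 95% critical value of Dixon's test, where chance, at about 1 in 20 groups, gives about 1.2. The TRPV6 level of R1881 + enzalutamide replicate 2 was 35.4 CPM, and the next library of its group had 29.8 CPM, a gap of 0.902 of the range of the group. The ORAI1 level of R1881 + DMSO replicate 6 was 13.5 CPM, and the next library had 9.10 CPM, a gap of 0.586 of the range. Both libraries were among the 3 with the highest level of GC-rich genes compared with GC-poor genes. Without R1881 + DMSO replicate 6 the log2 fold change of ORAI1 was -0.41 and still past the threshold, against -0.48 with it.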

How the results depend on the processing

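Of 299 values of the 10 genes under 30 alternative settings, 276 kept their direction and side of the threshold, 23 changed side and none reversed. TRPM8, TRPM4, TRPM7, ORAI1 and STIM2 kept their call under every setting. The 299 values include 29 of TRPC1, all with the call kept. TRPC1 passed the filter of a mean of 0.5 CPM only through the enzalutamide libraries. Its calls in fits with that filter are therefore no support, and a filter of a mean of 1 CPM removed it. STIM1 was called as higher with library totals set to 1000000 (0.13), with edgeR (0.077) and with the GC trend removed (0.10). ORAI2 was not called with the replicate block (0.17), on replicates 1 to 5 without a block (0.17), against the R1881 + DMSO libraries 51 to 55 (0.16) or 71 to 75 (0.19), or without the 3 libraries high in GC-rich genes (0.15). Against the libraries 71 to 75 TRPV6 (0.14) and ORAI3 (0.18) were not called either. There 2 of the 10 genes, TRPC1 and STIM2, were called as higher (28.3% of all genes), and 3 genes of calmodulin, calcineurin and NFAT as lower. With library totals set to 1000000 the numbers of lower genes were 2 in that list and 1 in the mitochondrial list. Leaving out single libraries, the log2 fold change was 0.12 to 0.19 for TRPV6, 0.11 to 0.22 for ORAI2 and 0.17 to 0.24 for ORAI3. In these fits 3 to 5 of the 10 genes, TRPC1 among them, were called as higher, where 28.1% to 30.6% of all genes were. The number was 3 without R1881 + DMSO replicate 3 or without R1881 + enzalutamide replicate 2, 3 or 5. All 690 values of the other named genes of the lists and of KLK2, TMPRSS2 and FKBP5 kept their direction and call. The replicate numbers shared by the treatments did not pair the libraries (correlations of deviations between -0.07 and 0.07, and 1 of 5 enzalutamide libraries was most like its own number). The block, fitted over these 10 libraries, gave 10117 genes called in place of 10333 without it. Counting error limits TRPC1.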
